A study of Homo sapiens with 3 samples.

Results

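The genes of the high mobility group (HMG) proteins were examined in lists of RNA sites recovered with a pair of ribosomal proteins. The members were 10 named genes out of 58998 genes placed on chromosomes by NCBI RefSeq: HMGN1, HMGN2, HMGN3, HMGN4, HMGN5, HMGB1, HMGB2, HMGB3, HMGA1 and HMGA2. A peak was given to a member when its summit lay within the gene's bounds in GRCh38.p14. This gave 103 of 154000 peaks in one list and 316 of 254413 in the other. The study used HCT116, an established human colorectal carcinoma cell line, grown in serum-containing McCoy's medium. Cells of genotype RPL22 -HaloTag gave 1 library, whose peaks form the RPL22 list, and cells of genotype RPL22L1HaloTag gave 1, whose peaks form the RPL22L1 list. The library of cells with HaloTag alone was not analysed here, so no background level stands beside the values. RNA was recovered by GoldCLIP, a crosslinking method in which the HaloTag binds the fused protein covalently to beads. The labels give no promoter, clone or expression level for the fusions.

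HMG proteins are small, abundant chromatin proteins without enzyme activity. HMGN proteins bind the nucleosome itself and counteract linker histones, HMGB proteins bend DNA through paired HMG boxes, and HMGA proteins bind AT-rich DNA through short AT hooks. HMGA1 and HMGA2 are low in most adult tissue and high in embryos and in many carcinomas. RPL22 binds RNA and is part of the large subunit of the ribosome, and RPL22L1 is a closely related paralog. The peaks bear on RNA of these genes held by the tagged ribosomal proteins, not on the HMG proteins themselves.

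Each peak carries a whole-number score set by the authors, and its rank is counted from the highest score of its own list. Scores of separate libraries need not share a scale, so they are compared within a list only. A peak is called flat when it is 30 bases wide with its summit offset at 15, and shaped otherwise. With 1 library per genotype and an unknown number of reads behind it, no test between the lists was run. Intervals are exact Clopper-Pearson 95% intervals for counting error only, and the values describe these libraries rather than the conditions. The gene set was chosen by name with its summit counts already known, HMGN1 for 0 RPL22 against 10 RPL22L1 summits in lists of equal size, so all counts are a description. The lists give no strand, so reads of a gene and of an antisense or nested gene cannot be told apart.

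The few sequences on which the position of a peak turns were read from the RefSeq tables of GRCh38.p14. They are from HMGA1 on chromosome 6, the member with the highest RPL22 score. A peak of both lists began at chr6:34236911, so the last 12 bases of the window listed around the first HMGA1 transcript start, 34236873, lie inside it. Those 12 bases are in capitals in the first line, which shows chr6:34236893-34236922 on the plus strand. The second line shows a flat RPL22L1 peak upstream of another listed start of HMGA1, 34238791, at chr6:34238636-34238665 on the plus strand, with its summit base in capitals. The labels of these lines name the start whose window they come from, and neither line contains the start base itself. The last lines show the mature products of MIR6835, a microRNA gene inside HMGA1, with their seeds, bases 2 to 8, in capitals.
HMGA1 first start: cggtgctgcgctcctctaATTGGGACTCCG
HMGA1 second start: aagtgagggattgggGttaggccctaaatg
hsa-miR-6835-5p: aGGGGGUAgaaaguggcugaag
hsa-miR-6835-3p: aAAAGCACuuuucugucucccag

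Of the 10 members, 9 held more summits in the RPL22L1 list, which is the longer one. The share of all genes with more RPL22L1 summits was not counted. RPL22 summits lay in 8 of the 10 genes and RPL22L1 summits in 10 of 10, while 68.8% and 70.3% of 19879 protein-coding genes held one. A shaped summit lay in 8 and 9 of the members, against 52.1% and 45.8% of protein-coding genes. HMGN1 and HMGN5 had RPL22L1 summits without any RPL22 summit, which was so for 6.67% of protein-coding genes. The members' median was 2 RPL22 and 10 RPL22L1 summits, against 3 and 4 over all protein-coding genes. HMGA2 alone held 73 of the 103 RPL22 summits and 226 of the 316 RPL22L1 summits. Without it the totals were 30 and 90.

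The RPL22L1 list is the longer one. With it reduced to its 154000 highest-scoring peaks, the members held 200 RPL22L1 summits. In these lists of equal size 6 members had at least 10 summits in both lists together. The log2 ratio of summit number plus 1, RPL22L1 over RPL22, was 3.46 for HMGN1 and 1.87 for HMGN4. Both lay above 1, as did 6.37% of 8620 genes with at least 10 summits. It was 0.95 for HMGA2, 0.74 for HMGB1, 0.00 for HMGN3 and -0.51 for HMGA1. None of the 6 lay below -1, where 8.75% of all such genes lay. The median was 0.84 over these 6 members and 0.00 over all 8620 genes. In the whole lists 5 members lay above 1, where 30.7% of 9972 genes lay. Counts this small leave the ratios of single genes loose.

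**Figure D1:**
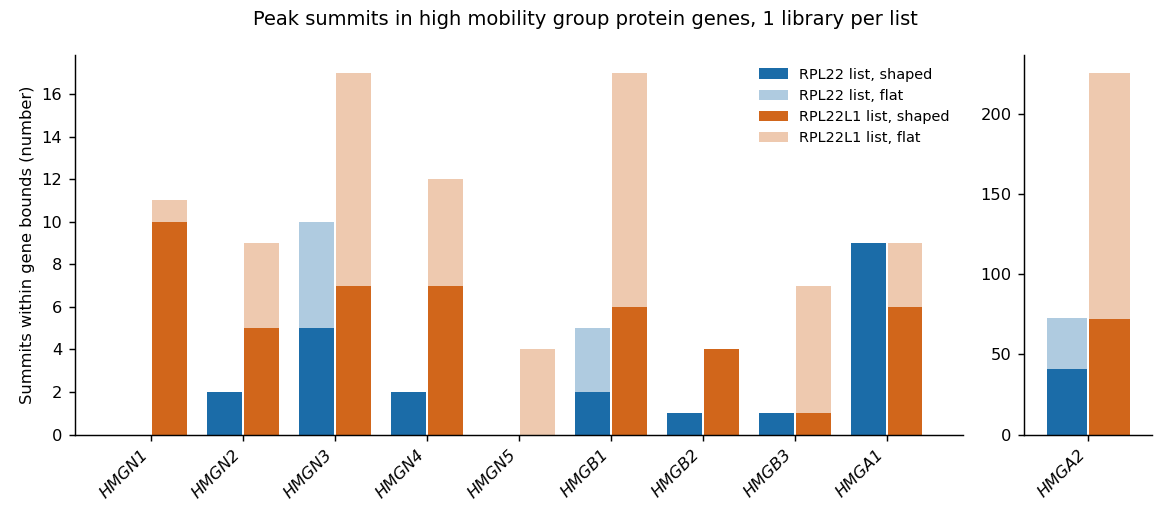
Number of peak summits within the bounds of each gene, with shaped peaks in full colour and flat peaks in pale colour, 1 library per list; HMGA2 has its own axis. Counts are from the whole lists, of which the RPL22L1 list is the longer. Every gene but HMGA1 holds more RPL22L1 than RPL22 summits, HMGA1 holds 9 in both, and HMGN1 and HMGN5 hold none in the RPL22 list.

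Per kilobase of gene, the members stood in a different order in the lists. In the RPL22 list HMGA1 was densest with 0.962 summits per kb, followed by HMGA2 with 0.515, HMGN2 with 0.476, HMGB2 with 0.335, HMGN3 with 0.299 and HMGN4 with 0.233. HMGB3 had 0.0974 and HMGB1 0.0311. In the RPL22L1 list HMGN2 led with 2.14, before HMGN1 with 1.62, HMGA2 with 1.59, HMGN4 with 1.40, HMGB2 with 1.34 and HMGA1 with 0.962. HMGB3 followed with 0.682, HMGN3 with 0.508, HMGB1 with 0.106 and HMGN5 with 0.0453. The lead of HMGN2 rested on the whole list with flat peaks: per kb, shaped RPL22L1 summits numbered 1.48 in HMGN1, 1.34 in HMGB2 and 1.19 in HMGN2. In lists of equal size HMGN2 kept 5 of its 9 RPL22L1 summits and HMGN1 10 of 11. The medians over protein-coding genes were 0.102 and 0.132 summits per kb. Genes with 1 or 2 summits, such as HMGN2, HMGN4, HMGB2 and HMGB3 in the RPL22 list, cannot be ordered among themselves.

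Flat peaks were less frequent in the members than elsewhere in genes. They made up 38.8% of the members' RPL22 peaks and 62.7% of their RPL22L1 peaks, against 61.5% and 76.4% of all peaks in protein-coding genes. Without HMGA2 the flat shares were 26.7% and 48.9%.

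Peaks of both lists met at 35 places in 6 of the 10 genes, and 23 of these places lay in HMGA2. The share of all protein-coding genes with such a place was not counted, so the number of genes is a description only. Of the members' RPL22 peaks, 35 of 103 shared at least 1 base with an RPL22L1 peak, or 34.0% (24.9 to 44.0%), and 19.1% of all RPL22 peaks in protein-coding genes did. Of their RPL22L1 peaks, 35 of 316 did, or 11.1% (7.84 to 15.1%), beside 11.4% over protein-coding genes. Shaped RPL22 peaks of the members overlapped in 33 of 63 cases, or 52.4% (39.4 to 65.1%), and flat ones in 2 of 40. Over the whole RPL22 list the shaped share was 39.2% and the flat share 5.59%. On the RPL22L1 side the order was the other way: 22 of the members' 118 shaped peaks overlapped, or 18.6% (12.1 to 26.9%), against 26.0% of all shaped RPL22L1 peaks. The background of all RPL22 peaks in protein-coding genes was richer in flat peaks than the members were, at 61.5% against 38.8%. The summits of the 35 pairs lay a median of 10 bases apart, 2 pairs had them at the same base, and the widest distance was 62 bases.

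High scores were reached by a few members. A peak within the top 1% of its list lay in HMGA1 and HMGB1 in the RPL22 list, where 4.71% of protein-coding genes had one. In the RPL22L1 list it lay in HMGN1, HMGB1, HMGA1 and HMGA2, where 7.56% of protein-coding genes had one. Genes with more summits have more chances of a high rank, which bears on HMGA2 most.

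**Figure D2:**
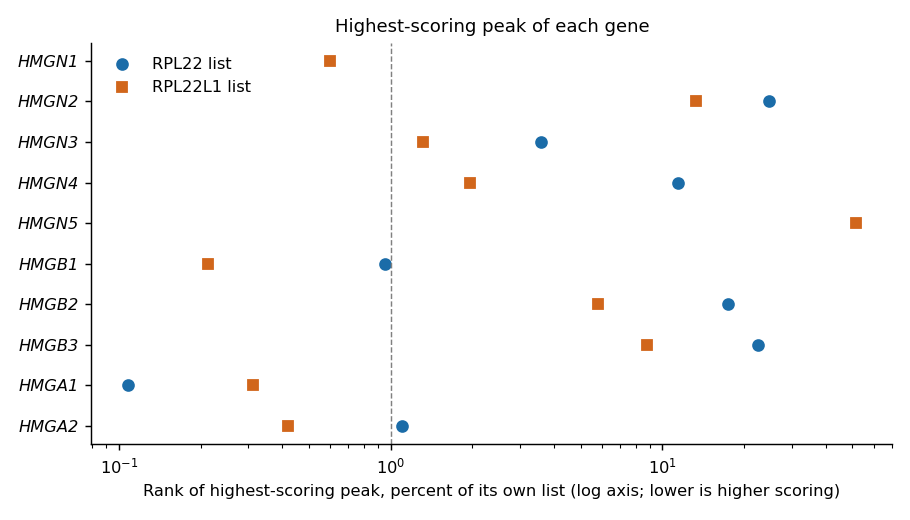
Rank of each gene's highest-scoring peak as a percentage of its own list, on a log axis, with the dashed line at 1%. HMGA1 holds the highest-ranked RPL22 peak, at 0.108%, and HMGB1 the highest-ranked RPL22L1 peak, at 0.213%; HMGN1 and HMGN5 have no RPL22 point.

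HMGN1, which binds nucleosomes and is associated with open chromatin, lies on chromosome 21 (39342315 to 39349088, minus strand). It held 0 RPL22 summits and 11 RPL22L1 summits, of which 10 were shaped. The RPL22L1 scores ranged from 22 to 1188 with a median of 167. Apart from 1 peak near the 3′ bound, the other 10 summits lay within 2.20 kb. The highest peak, at 39347408 to 39347455, had rank 1519, within the top 0.597% of the list. The next was 62 bases wide, at 39345897 to 39345958, with a score of 704 and rank 4458. It was followed by a peak with a score of 453 at 39347232 to 39347266. No RPL22 peak came near: for the RPL22L1 peak closest to one, 18411 bases lay between. A weak RPL22L1 peak with a score of 22, at 39345335 to 39345364, reached into LOC124905074, a snoRNA gene annotated at 39345351 to 39345457, though its summit lay outside. Among 1508 protein-coding genes of like length (shorter over longer at least 0.8), 47.9% held no RPL22 summit either. At least as many shaped RPL22L1 summits were held by 8 of them, HMGN1 included.

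Genes most like HMGN1 were named by ranking the 6203 protein-coding genes without an RPL22 summit on shaped RPL22L1 summits, over these 2 libraries. HMGN1 stood at place 4 with 10. Ahead of it were NPM1 with 19, PDP1 with 19 and HSPD1 with 12, and HNRNPA1 with 9 and FTSJ3 with 7 came next. NPM1 encodes the nucleolar protein nucleophosmin, PDP1 a pyruvate dehydrogenase phosphatase, HSPD1 the mitochondrial chaperonin HSP60, HNRNPA1 a splicing regulator and FTSJ3 a methyltransferase of ribosome production. Their highest RPL22L1 peaks had ranks of 1105, 737, 422, 922 and 35479 in the order named. The median of all 6203 genes was 0 shaped RPL22L1 summits.

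HMGN2, a close relative of HMGN1, lies on chromosome 1 (26472440 to 26476642, plus strand). It held 2 RPL22 summits, with scores of 23 and 59, and 9 RPL22L1 summits with scores from 29 to 277. Both RPL22 summits were shaped and lay at the 5′ end, 61 and 185 bases after the annotated start. The first of these, at 26472490 to 26472519, overlapped a flat RPL22L1 peak at 26472492 to 26472521 with a score of 52. The other RPL22L1 summits lay farther into the gene, from 26473483 to 26475270. These included a shaped peak 156 bases wide at 26473804 to 26473959 with a score of 183. Of 1119 protein-coding genes of like length, 28.2% held at least 2 RPL22 and 2.59% at least 9 RPL22L1 summits. None of the HMGN2 peaks reached the top 10% of either list, the best ranks being 37819 and 33899.

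HMGN3, a nucleosome-binding protein first described as a partner of the thyroid hormone receptor, lies on chromosome 6 (79201245 to 79234682, minus strand). It held 10 RPL22 and 17 RPL22L1 summits, of which 5 and 7 were shaped. In lists of equal size the numbers were 10 and 10. Of 2286 protein-coding genes of like length, 28.4% and 27.2% held at least as many as the whole lists gave. All 7 shaped RPL22L1 peaks lay near the ends of the gene, 6 of them within 2363 bases of the 3′ bound and 1 at the 5′ end, while the 10 between were flat. The 5′ peak, at 79234539 to 79234583 with a score of 567, ended at the same base as an RPL22 peak at 79234553 to 79234583 with a score of 236 and rank 5510. Their summits lay 105 and 101 bases after the annotated start, within the bounds of the antisense gene HMGN3-AS1. Near the 3′ bound, an RPL22L1 peak at 79201513 to 79201564 with a score of 815 and rank 3357 began at the same base as an RPL22 peak with a score of 58. One more pair lay at 79203587 to 79203631, where the RPL22 peak scored 58 and the RPL22L1 peak 169.

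HMGN4, whose coding sequence lacks introns and resembles HMGN2, lies on chromosome 6 (26538366 to 26546933, plus strand). It held 2 RPL22 summits with scores of 64 and 111 and 12 RPL22L1 summits with scores from 38 to 667. All 7 shaped RPL22L1 peaks lay in the last 2.09 kb, as did both RPL22 peaks, which were shaped. The RPL22 peak at 26546637 to 26546711 was 75 bases wide and enclosed a flat RPL22L1 peak at 26546682 to 26546711, which had the highest score of the gene in that list and rank 4981. The other RPL22 peak, at 26546444 to 26546473, lay 15 bases from a shaped RPL22L1 peak at 26546489 to 26546569. At least 2 RPL22 summits were held by 44.4% and at least 12 RPL22L1 summits by 5.16% of 1744 protein-coding genes of like length.

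HMGN5, which carries a long acidic tail, lies on the X chromosome (81113699 to 81201913, minus strand) and was the poorest member. It held 0 RPL22 summits and 4 RPL22L1 summits, all flat, with scores of 34, 81, 115 and 98. None ranked above 131311. Of 1687 protein-coding genes of like length 13.3% held no RPL22 summit, the median was 11, and 73.4% held at least 4 RPL22L1 summits.

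**Figure D3:**
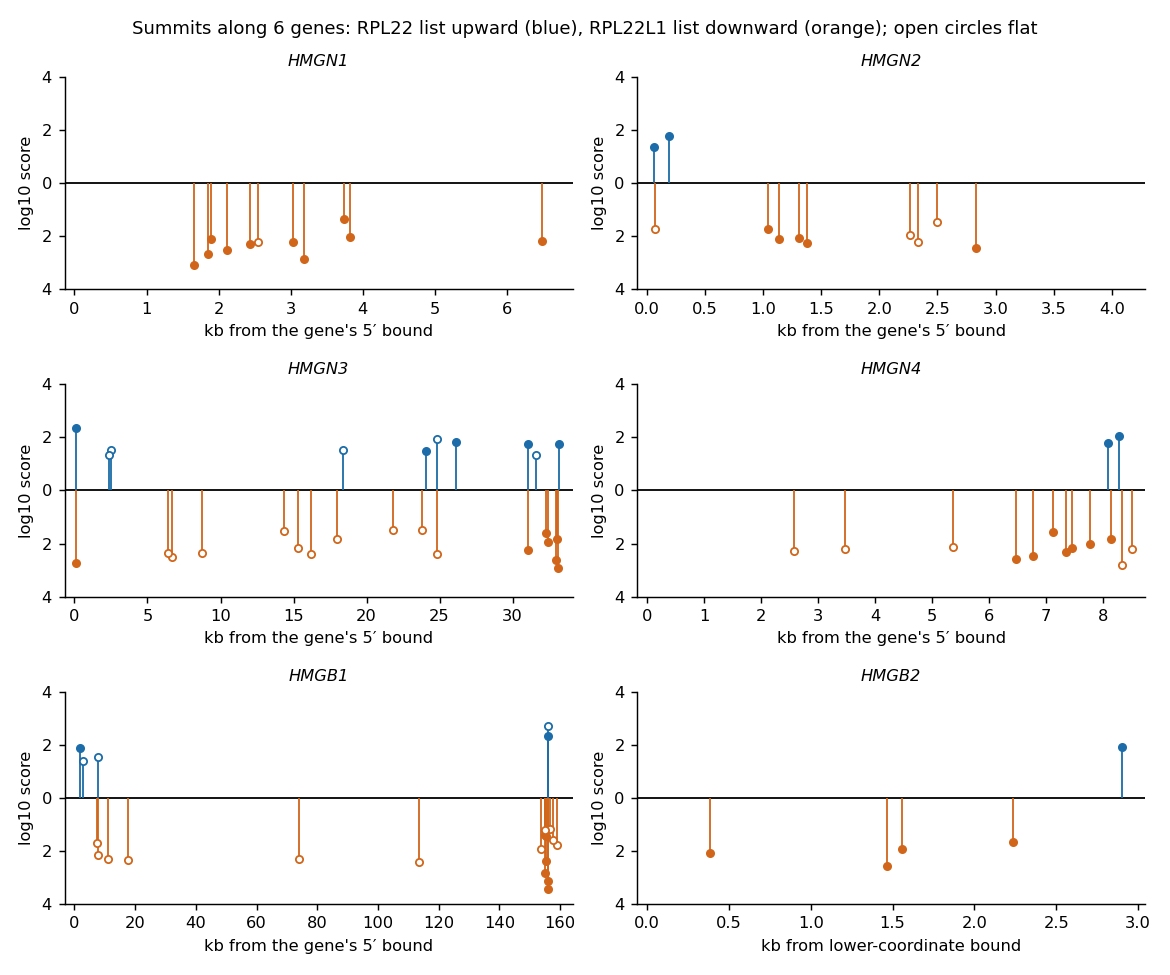
Summits along HMGN1, HMGN2, HMGN3, HMGN4, HMGB1 and HMGB2, in kb from the 5′ bound of the gene (from the lower-coordinate bound for HMGB2), with the log10 of the authors' score upward for the RPL22 list and downward for the RPL22L1 list; open circles are flat peaks. HMGN1 has points in the RPL22L1 list only, the shaped HMGN4 peaks lie in the last 2.09 kb, and the HMGB1 peaks of highest score lie near its 3′ bound.

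HMGB1, a DNA-bending protein that also acts as a danger signal outside cells, lies on chromosome 13 (30456704 to 30617597, minus strand). It held 5 RPL22 summits with scores of 520, 220, 33, 25 and 73, and 17 RPL22L1 summits with scores from 15 to 2678. The RefSeq bounds include transcripts with distant starts. Between the start listed at 30465936 and the 3′ bound, 9.23 kb, lay 11 RPL22L1 summits, including all 6 shaped ones, or 1.19 per kb. The remaining 152 kb held 6, all flat, or 0.0396 per kb. For the RPL22 list these numbers were 2 and 3. The peaks of the 3′ stretch with the highest scores were shared. The RPL22L1 peak at 30461617 to 30461694, with a score of 2678 and rank 543, overlapped an RPL22 peak at 30461630 to 30461662 with a score of 220. The RPL22L1 peak at 30461514 to 30461558, with a score of 1340, overlapped a flat RPL22 peak at 30461516 to 30461545 with a score of 520 and rank 1463, and their summits lay at the same base, 30461531. The next RPL22L1 peak by score, at 30462395 to 30462453 with a score of 685, had no RPL22 counterpart. Over its whole bounds HMGB1 was not rich in summits for its length: 70.3% of 1109 protein-coding genes of like length held at least as many RPL22 summits and 52.6% at least as many RPL22L1 summits. The pseudogenes RBM22P2, MFAP1P1 and PTPN2P2 within the bounds held 0 summits.

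HMGB2, which is high in dividing cells, is the shortest member, on chromosome 4 (173331376 to 173334358). Its 1 RPL22 summit had a score of 84 and lay 83 bases from the upper bound, and its 4 RPL22L1 summits had scores of 123, 390, 87 and 45. All 5 peaks were shaped, and none overlapped: 640 bases lay between the nearest pair. At least 1 RPL22 summit was held by 35.4% and at least 4 RPL22L1 summits by 13.7%, shaped ones by 3.75%, of 879 protein-coding genes of like length. HMGB3, known from blood stem cells and progenitors, lies on the X chromosome (150980507 to 150990771, plus strand). It held 1 shaped RPL22 peak with a score of 70 and 7 RPL22L1 peaks with scores from 14 to 323, of which 6 were flat. At least as many were held by 61.0% and 22.9% of 1939 protein-coding genes of like length. Its peaks did not overlap either, and 316 bases lay between the nearest ones.

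HMGA1 lies on chromosome 6 (34236873 to 34246231, plus strand) and had the most RPL22 summits per kb of any member. It held 9 RPL22 summits, all shaped, and 9 RPL22L1 summits, of which 6 were shaped. Among 1865 protein-coding genes of like length 4.08% held at least 9 RPL22 summits and 14.2% at least 9 RPL22L1 summits. With HMGA1 included, 13 of them held at least 9 shaped RPL22 summits and 109 at least 6 shaped RPL22L1 summits. The RPL22 scores were 1082, 64, 555, 28, 190, 95, 1893, 462 and 10572 from the 5′ to the 3′ end. The RPL22L1 scores in the same order were 1464, 209, 41, 152, 185, 58, 42, 513 and 1800. In lists of equal size the numbers of summits were 9 and 6.

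Of these peaks 5 were shared. The 5′ peaks, shown above, began at the same base, 34236911, and the RPL22 peak ended at 34236988 and the RPL22L1 peak at 34236962, with ranks of 654 and 1061. Their summits lay 60 and 61 bases after the annotated start. These bases also lie within LOC124901225, an overlapping protein-coding gene at 34236246 to 34238380. That gene covered 3 RPL22 and 1 RPL22L1 summits of HMGA1. Near the 3′ end, a pair of places showed opposite orders within the lists. At 34245258 to 34245298 the RPL22 peak had rank 425, and its RPL22L1 counterpart, 34245262 to 34245292, had rank 8542. At 34245440 to 34245497 the RPL22 peak had rank 1773, and its counterpart, 34245444 to 34245495, had rank 792. The summits of these pairs lay 4 and 2 bases apart.

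The peak with the highest RPL22 score of any member lay 661 bases beyond the last RPL22L1 peak of the gene. It spanned 34246157 to 34246190 and scored 10572, which placed it at rank 167, or 0.108% of its list, and its summit was 52 bases from the 3′ bound. Another RPL22 peak without counterpart, at 34237177 to 34237246, scored 555, rank 1346, and also lies within LOC124901225. The RPL22L1 list had no HMGA1 peak of comparable rank without an RPL22 counterpart. Its 4 unshared peaks scored 209, 41, 152 and 42, and 3 of them were flat.

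In the middle of HMGA1, peaks of both lists began at the same base, 34240706, inside MIR6835 (34240673 to 34240736). They ran to 34240813 in the RPL22 list, with a score of 190 and rank 7700, and to 34240861 in the RPL22L1 list, with a score of 185 and rank 78087. The 23 bases of miR-6835-3p (34240714 to 34240736) lay wholly inside both peaks, and none of the 22 bases of miR-6835-5p (34240678 to 34240699) did. The RPL22L1 summit, 34240708, lay within the microRNA gene and the RPL22 summit, 34240739, lay 3 bases past it. Reads of the microRNA and of the HMGA1 transcript cannot be told apart here.

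**Figure D4:**
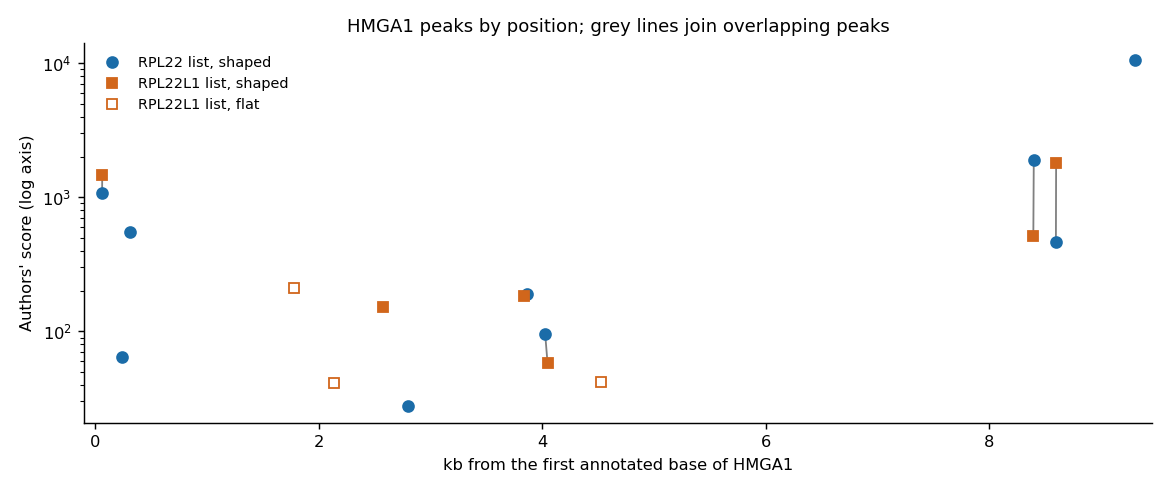
HMGA1 peaks by the distance of their summit from the first annotated base in kb, with the authors' score on a log axis; circles are the RPL22 list, squares the RPL22L1 list, open squares flat peaks, and grey lines join overlapping peaks. The RPL22 peak with a score of 10572 stands alone at the 3′ end, while the 5′ peaks of both lists lie together.

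HMGA2, the other AT-hook gene and a known target of the let-7 microRNAs, lies on chromosome 12 (65824460 to 65966291). It held 73 RPL22 summits, 41 of them shaped, and 226 RPL22L1 summits, 72 of them shaped. Both numbers were high for its length. Among 1254 protein-coding genes of like length the medians were 14 and 19, HMGA2 was the 1 gene with at least 73 RPL22 summits, and 2 genes, HMGA2 included, held at least 226 RPL22L1 summits. The RPL22 scores ranged from 14 to 472 with a median of 45, and the RPL22L1 scores from 14 to 1459 with a median of 122. Reduced to equal size, the RPL22L1 list kept 142 summits here, of which 58 were shaped.

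The first 20 kb from the lower bound held 4 RPL22 summits, all shaped, and 44 RPL22L1 summits, of which 31 were shaped. Over the remaining 122 kb there were 69 RPL22 and 182 RPL22L1 summits. Shaped RPL22L1 summits stood at 1.55 per kb in the first stretch and 0.337 per kb beyond it, and shaped RPL22 summits at 0.2 and 0.304 per kb. The boundary was chosen after the values were seen, and the window from 40 to 50 kb also stood apart, with 2 RPL22 and 23 RPL22L1 summits. The pseudogene RPSAP52 overlaps the first bases of HMGA2 and covered 2 RPL22 and 4 RPL22L1 summits.

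Of the 41 shaped RPL22 peaks of HMGA2, 22 overlapped an RPL22L1 peak, or 53.7% (37.4 to 69.3%), and of its 32 flat ones 1 did, beside 39.2% and 5.59% over the whole list. Of its RPL22L1 peaks, 12 of 72 shaped ones overlapped, or 16.7% (8.92 to 27.3%), and 11 of 154 flat ones, or 7.14% (3.62 to 12.4%). Over the whole RPL22L1 list the shaped share was 26.0% and the flat share 6.23%. The intervals of the shaped and flat shares overlap, which alone does not settle whether these shares differ. The highest RPL22 peak, at 65852882 to 65852951 with a score of 472 and rank 1691, overlapped an RPL22L1 peak at 65852871 to 65852939 with a score of 792. The highest RPL22L1 peak, at 65830415 to 65830507 with a score of 1459 and rank 1067, enclosed an RPL22 peak at 65830441 to 65830484 with a score of 243, and the summits lay 1 base apart. Near the upper bound, a pair at 65963309 to 65963400 had scores of 375 in the RPL22 list, rank 2470, and 1235 in the RPL22L1 list, rank 1421. An RPL22L1 peak without counterpart lay at 65830112 to 65830184, with a score of 928. An RPL22 peak without counterpart lay at 65824937 to 65824971, also within the bounds of RPSAP52, with a score of 336.

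Antisense genes lie inside HMGA2 and hold part of its summits. HMGA2-AS1 (65851227 to 65882325) covered 25 RPL22 and 51 RPL22L1 summits, and HMGA2-AS2 (65933318 to 65948707) covered 11 and 27. The highest RPL22 peak of HMGA2 lies within HMGA2-AS1.

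**Figure D5:**
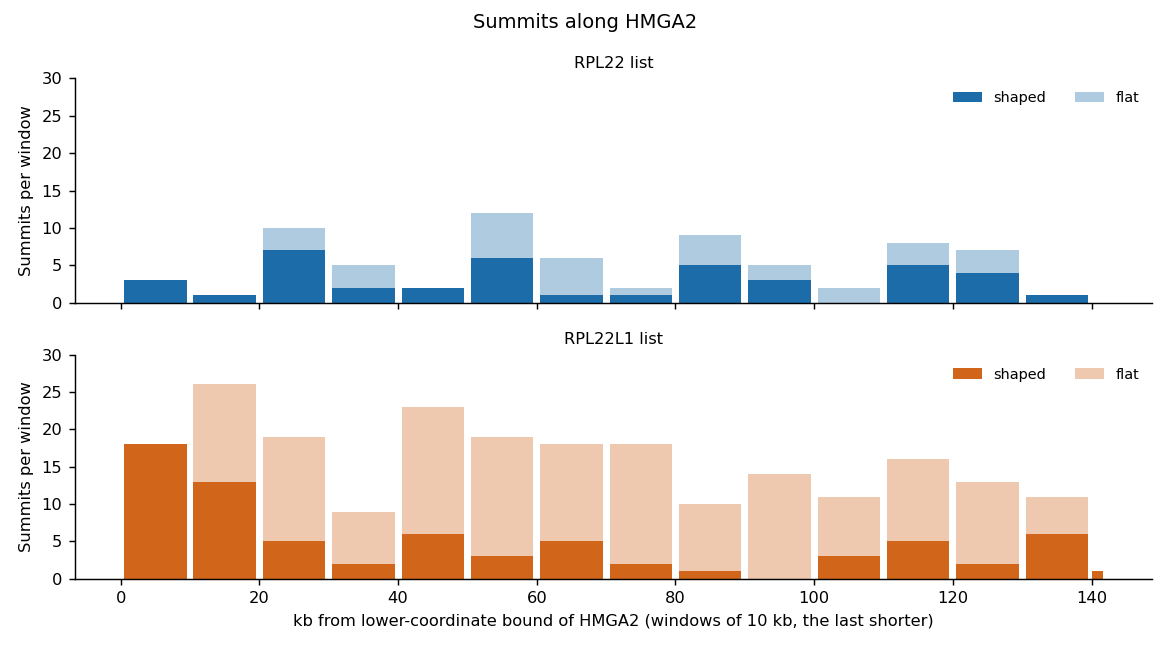
Summits along HMGA2 in windows of 10 kb from the lower-coordinate bound, with shaped peaks in full colour and flat peaks in pale colour, for the RPL22 list above and the RPL22L1 list below. The first window holds 3 RPL22 and 18 RPL22L1 summits, all shaped, and most RPL22L1 summits farther on are flat.

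RefSeq names 178 genes on the chromosomes as numbered copies of a member, 50 of HMGB1, 48 of HMGN2, 38 of HMGN1, 32 of HMGB3, 8 of HMGA1 and 1 each of HMGN3 and HMGB2. RPL22 summits lay in 18 of them and RPL22L1 summits in 23, with 5 in common, and shaped summits in 6 and 6. The same shares were not counted over all pseudogenes, so these numbers cannot be called high or low. The highest RPL22 score was 302, in HMGA1P3, which also held an RPL22L1 peak with a score of 263. It was followed by HMGA1P1 and HMGN2P46 with 102, HMGB1P3 with 87, and HMGB1P21 and HMGN1P3 with 72. HMGN2P46 is annotated as a transcribed pseudogene of 45595 bases, so its summits need not lie in sequence like HMGN2. The highest RPL22L1 scores were 303 in HMGN1P26 and 283 in HMGB1P31, then 263 in HMGA1P3, 244 in HMGN2P46 and 224 in HMGB1P51. Of the 38 copies of HMGN1, 5 held RPL22 summits, 6 in all, 5 of them flat. RPL22L1 summits lay in 4 of these copies, 4 in all, 1 of them shaped. The treatment of reads that match both is not given in the sources used here, so counts of a parent gene and its copies may be divided.

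Of 41 other genes of the same chromatin setting, 31 held RPL22 and 29 held RPL22L1 summits, beside 68.8% and 70.3% of all protein-coding genes. Of 24 further HMG-box genes, which include transcription factors of the SOX and TCF families, 22 held RPL22 and 19 held RPL22L1 summits. TCF7L2, a Wnt effector, held the most, 90 and 236. Of 10 linker histone genes, whose products compete with HMG proteins for nucleosomes, 4 held summits in each list. Of 7 genes for proteins that bind HMG proteins or the same nucleosome sites 5 and 6 did. Of these 41 genes 22 had at least 10 summits in lists of equal size, with 3 above a log2 ratio of 1 and 2 below -1. Over all genes with at least 10 summits, 6.37% lay above 1 and 8.75% below -1. In the RPL22 list 6 of the 41 genes had a peak in the top 1%, where 4.71% of protein-coding genes had one. These included SSRP1, H1-2, H1-4, H1-10 and SET. In the RPL22L1 list 8 had one, against 7.56% of protein-coding genes. They were TCF7L2, SOX4, SOX9, H1-2, NPM1, SET, ANP32A and XPO1. SSRP1 is a subunit of the histone chaperone FACT, and SET and ANP32A are acidic histone-binding proteins. SET, with 8 RPL22 and 15 RPL22L1 summits, had its highest peaks at ranks 425 and 1270.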

How the data were processed

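The deposited peak lists came from 1 library per tagged protein, RPL22 or RPL22L1. Per the submitters' processing notes, cutadapt 4.8, STAR 2.7.10a, UMI-tools 1.1.5, MACS3 3.0.0a6 and hg38 were used, without role or order. The deposited score is a whole number per peak set by the authors, whose scale is not stated. The deposited columns also gave start, end and summit offset in bases. The control used in calling and the reads per library are not given in the sources used here, so depth is unknown.

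Summits (start plus offset plus 1) were counted within RefSeq bounds. Of the gene table, 58998 genes on chromosomes were kept, and rows placed on scaffolds were left out. Strand and transcript starts of 8 members came from the RefSeq table of start windows, 250 bases before to 50 after. Overlap meant at least 1 shared base. For equal size the longer list was cut at its lowest scores, with ties at a score of 98 kept by position. Genes of like length had a length ratio to the member, shorter over longer, of at least 0.8. Members and lists were chosen with earlier results of these data known. Genes named were the members, genes overlapping them, the 5 top copies per list, related genes with a peak in the top 1% and the 5 genes most like HMGN1, and 1 gene that met this rule is not reported here. Alternatives covered flat peaks, list size, score, merging, overlap, gene bounds and pseudocount.

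Software was Python 3.11.15 with pandas 2.3.3, numpy 2.4.6 and scipy 1.17.1, and figures were drawn in matplotlib 3.10.9. On 20000 simulated peaks with 20.2% planted on RPL22L1 peaks the overlap code recovered 20.2%. Planted peaks began at the start of an RPL22L1 peak and the others lay on a chromosome absent from that list. Near misses were therefore not tested by this simulation. Against a direct search, 0 of 300 overlap calls on RPL22 peaks and 0 of 100 gene counts differed.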

Additional observations from a re-analysis of the deposited data

How the results depend on the processing

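Leaving out HMGA2 and leaving out tied peaks were chosen after seeing the data. No paired analysis was possible because each group had 1 library. Without flat peaks the members' summits numbered 63 and 118, and the RPL22L1 overlap share was 17.8%. Lists of equal size gave 200 RPL22L1 summits and a share of 15.5%. Peaks at or above the median score gave 162 RPL22L1 summits and a share of 16.0%. Where both peaks had to share 50% of their length, the shares were 21.4% and 6.96%. Without HMGA2 the summits numbered 30 and 90. At least 3 RPL22 summits were held by 4 members. Members with a log2 ratio above 1 numbered 5 in whole lists and 0 without flat peaks, where HMGN1 fell under the minimum of 10 summits with 9 and a ratio of 3.32, and HMGN4 with 8 and a ratio of 1.22. In all, 26 of 40 alternative values for the sets stayed within 1.5-fold or within their interval and 14 moved. Of 120 values for single genes 95 stayed, 24 moved down and 1 moved up. Counts in the RPL22 list cannot change in lists of equal size, and merging neighbouring peaks changed none of the values for the sets. Intervals of genes with few summits are wide, so few shifts in their ratios could count as moves. The numbers that stayed therefore overstate stability. Reads per library are unknown, so the difference in list length could not be set against depth.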
